A study of Mus musculus with 11 samples.

Results

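Endothelial identity is held by a small set of transcription factors. The 10 genes described here were Erg, Fli1 and Ets1 of the ETS family, Sox7, Sox17 and Sox18 of the SOXF group, the Krüppel-like factors Klf2 and Klf4, and Tal1 and Gata2, which endothelium shares with blood cells. They were listed by name, and each symbol matched 1 Ensembl gene identifier, so the set held 10 of the 55359 genes in the count files. Reads came from CD31+/CD45- vascular endothelial cells of the retina, sorted at P17 from C57BL/6 mice (C57BL/6J in the study's methods). The mice were in the oxygen-induced retinopathy (OIR) model, in which pups pass from high oxygen to room air. Abnormal vessels form in the hypoxic phase that follows. Oncostatin M (OSM), a cytokine of the interleukin-6 family, was given to 5 mice and PBS to 6 mice, as 0.5 µL into the vitreous at P12, with OSM at 100 ng/µL. The amount of OSM injected is given in different mass units in different places of the study's text, and the labels were followed here. Litter 1 held 2 OSM-treated and 2 PBS-treated mice, litter 2 held 2 and 2, and litter 3 held 1 and 2, and each litter was 1 OIR run, so litter and run cannot be told apart. All mice shared the OIR exposure, and no untreated or room-air retina was among the samples. Both retinas of a mouse were pooled into 1 sample, and the study's methods state that PBS control injections were made in contralateral eyes. They do not say whether this applied to the sequenced mice, so an OSM sample may hold cells of a PBS-injected eye.

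Factors of the ETS family bind a GGAA core that is found at most endothelial enhancers, and they act there together with SOXF, GATA and SCL/TAL1 proteins. Klf2 and Klf4 are induced by laminar blood flow and sustain a quiescent, antithrombotic endothelium. In the retina these families are known for their part in sprouting, arteriovenous identity and barrier formation.

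The sorted cells carried endothelial transcripts in every mouse. All 10 endothelial markers passed the filter on low counts. Their mean levels lay between 84.0 RPKM for Egfl7 and 3315 RPKM for Cldn5 (RPKM, reads scaled to exon length and library size). Ptprc, which encodes the CD45 used to exclude leukocytes, had a mean of 3.45 normalized counts. Means of the other leukocyte markers ran from 1.47 normalized counts for P2ry12 to 280 for Lyz2. Libraries held 26697990 to 56033479 reads. The mitochondrial share of reads was 0.966 to 1.52% in litter 1 and 1.81 to 3.02% in litters 2 and 3. Erythroid markers summed to 384 to 1144 CPM (counts scaled to library size) with OSM and 134 to 615 CPM with PBS. Of the 6 tested, 5 had an unadjusted p under 0.05, all higher with OSM, as 2.25% of all genes tested had. Each of the 5 had an adjusted p of 0.955 in the main edgeR fit. The erythroid regulators Gata1 and Klf1, however, had means of 0.353 and 2.05 normalized counts. At most 4 markers of each list were followed in the alternative fits. Of these, DESeq2 called Alas2, Hbb-bt and Hbb-bs, among 168 calls in 28940 genes. In edgeR without the filter on low counts, these, Hba-a2 and the rod marker Gnat1 were called, among 65 calls in 28940 genes. The fitted values of 10 of 11 mural cell markers were lower with OSM, as were those of 8795 of the 17050 genes tested. Their sums were 411 to 837 CPM with OSM against 310 to 1746 CPM with PBS, and Pdgfrb had an unadjusted p under 0.05. Within litter 2 the log2 differences of these markers were mixed, from -0.86 for Des to 2.69 for Myh11. Rod markers (9 genes) reached 3604 CPM in OSM mouse 5, whereas the other mice were at 129 to 1207 CPM. Müller cell and astrocyte markers summed to 445 to 871 CPM with OSM and 379 to 674 CPM with PBS. Platelet and megakaryocyte markers summed to 12.1 to 29.5 CPM with OSM and 10.0 to 23.2 CPM with PBS. Leukocyte markers reached 83.2 CPM in PBS mouse 4 and 31.6 CPM in PBS mouse 3. The leukocyte factor Spi1 had an unadjusted p under 0.05, with 0 reads in the 5 OSM-treated mice and 0 to 119 normalized counts with PBS. Only 3 mice had reads of Spi1. It thus passed the filter through PBS-treated mice alone, and its p is not read as a treatment difference. The part of these in the results below was not tested.

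All 10 factors were expressed well above the filter in all 11 mice, and their levels spread over a wide range. Sox18, which directs arterial and lymphatic programmes, was by far the most abundant at 422 ± 42.5 RPKM (SD, n = 11) and stood at the 99.8th percentile of the 17050 genes tested. The flow-induced factor Klf2 followed at 146 ± 33.7 RPKM. Ets1, a growth factor-responsive ETS activator, had 106 ± 12.5 RPKM, and Fli1, its neighbour on chromosome 9, had 87.2 ± 13.5 RPKM. Sox7 and Sox17, the other SOXF genes, had 67.4 ± 15.5 and 51.1 ± 12.5 RPKM. A lower tier was formed by Klf4 (11.2 ± 2.30 RPKM), Erg (11.1 ± 1.97 RPKM), Gata2 (7.37 ± 1.66 RPKM) and Tal1 (3.03 ± 0.62 RPKM), and Tal1 was at the 57.8th percentile.

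The order was firm at 4 steps and loose elsewhere. In 11 of 11 mice Sox18 was above Klf2, Klf2 above Ets1, Sox17 above Klf4 and Gata2 above Tal1, and Erg was above Gata2 in 10 of 11. The step from Sox17 to Klf4 was the widest, with a mean log2 ratio of 2.18 ± 0.30 (SD). Each of the steps from Ets1 to Fli1, Fli1 to Sox7 and Sox7 to Sox17 held in 9 of 11 mice. Klf4 and Erg did not differ beyond their spread, at a mean log2 ratio of 0.01 ± 0.36, and Klf4 was above Erg in 2 of 11 mice. Levels per length depend on the length assigned. With the longest transcript in place of the union of exons, Ets1 stood at 176 RPKM, above Klf2 at 157 RPKM, and Gata2 at 12.8 RPKM, above Erg at 11.8 RPKM.

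**Figure D1:**
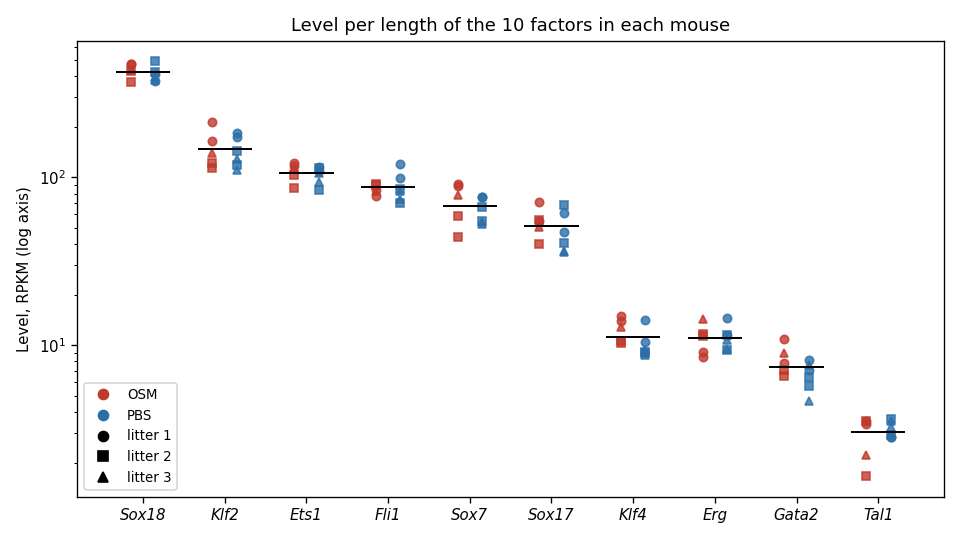
Level of each factor in each mouse in RPKM (log axis), ordered by mean, with OSM in red, PBS in blue, litters as symbols and black bars at the mean of all 11 mice. Sox18 lies above all others at 422 RPKM, and Klf4, Erg, Gata2 and Tal1 form a lower tier at 3.03 to 11.2 RPKM.

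Within each family the members had unequal shares of the transcript, with the union of exons as length. Among the 3 ETS members, Ets1 made up 51.9 ± 4.14% and Fli1 42.7 ± 3.80% of the summed RPKM, which left 5.45 ± 0.77% for Erg, the factor best known for keeping endothelial junctions and lineage genes active. Sox18 made up 78.3 ± 2.73% of the SOXF sum, Sox7 12.4 ± 2.13% and Sox17 9.35 ± 1.42%. Klf2 made up 92.8 ± 1.04% of the sum with Klf4. Of the relatives outside the set, Ets2 (46.2 RPKM) and Elk3 (27.1 RPKM) led the ETS factors, Sox4 (51.4 RPKM) and Sox13 (19.2 RPKM) led the SOX factors, and Klf6 (76.2 RPKM) led the KLF factors. Etv2, the ETS factor that starts the endothelial lineage in the embryo, had 0 reads in all 11 mice, and Lmo2, which bridges TAL1 and GATA proteins, had 153 RPKM. Reads of some members could be lost to overlapping genes on the other strand, where these were counted, because the library kit did not mark strand. In GENCODE vM39 a lncRNA covered 25.9% of the exon bases of Sox18, 19.0% of Sox17, 11.5% of Gata2, 4.88% of Tal1 and 2.81% of Fli1. Whether the older annotation used for counting held these lncRNAs was not tested.

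Whether OSM altered these factors was tested with litter as a term in the model. None of the 10 was called at an adjusted p under 0.05 (edgeR quasi-likelihood test with Benjamini-Hochberg adjustment), where 0 of 17050 genes (0%) were called, and none had an unadjusted p under 0.05, which 4.96% of all genes had (2.25% higher and 2.71% lower with OSM). DESeq2 called 168 genes and none of the 10. It gave 1 member, Klf4, an unadjusted p under 0.05, as it did 6.07% of 28940 genes. OSM-treated and PBS-treated mice overlapped for all 10, whereas 0.405% of all genes had groups without overlap. The median log2 difference (OSM minus PBS) was 0.06 over the members and -0.01 over all genes tested. In bulk samples such as these, a smaller endothelial share of a sort and less RNA of a gene per endothelial cell cannot be told apart. The 10 endothelial markers had log2 differences of -0.09 to 0.16, with a median of 0.04.

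Loci are given on GRCm39. Erg (ENSMUSG00000040732, chr16:95160028-95387452, minus strand) had normalized counts of 1006, 1079, 1345, 1387 and 1694 in the 5 OSM-treated mice and of 1115 to 1714 with PBS (median 1316, n = 6). The lowest pair of all mice were the OSM mice of litter 1, and the next to highest was the OSM mouse of litter 3, and the other values were mixed, so the groups overlapped in part. OSM minus PBS was -0.02 on the log2 scale (SE 0.19, 95% interval -0.45 to 0.40, adjusted p = 1).

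Fli1, a partner of Erg at many endothelial enhancers (ENSMUSG00000016087, chr9:32333500-32454157, minus strand), had 11510, 12364, 12598, 13460 and 13548 normalized counts with OSM and 10513 to 17920 with PBS (median 12578). OSM values sat in a narrow band inside the PBS range, whose top pair were both PBS mice of litter 1. Its log2 difference was -0.07 (SE 0.12, 95% interval -0.33 to 0.20, adjusted p = 1). In both genes OSM was below PBS in litter 1 and above it in litters 2 and 3: OSM minus PBS of Erg and Fli1 was -0.56 and -0.44 on the log2 scale in litter 1, 0.14 and 0.22 in litter 2, and 0.50 and 0.07 in litter 3. Here and below, each difference within litter 3 rests on 1 OSM-treated mouse, mouse 9.

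Ets1 (ENSMUSG00000032035, chr9:32547517-32669116, plus strand) had 24886, 29771, 32641, 33769 and 35103 normalized counts with OSM and 24389 to 33339 with PBS (median 31059). Both groups reached down to nearly the same lowest value, in each case a mouse of litter 2, and 2 OSM-treated mice exceeded all PBS-treated mice. Its log2 difference was 0.05 (SE 0.09, 95% interval -0.15 to 0.25, adjusted p = 1), the smallest standard error of the 10.

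Sox7 (ENSMUSG00000063060, chr14:64181006-64188352, plus strand), which acts early in endothelial specification, had 5613, 7486, 9924, 11165 and 11584 normalized counts with OSM and 6709 to 9618 with PBS (median 7688). OSM-treated mice lay at both ends of the range: 3 exceeded all PBS-treated mice, and OSM mouse 5 was below them all. Its log2 difference was 0.15 (SE 0.13, 95% interval -0.14 to 0.43, adjusted p = 1).

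Sox17 (ENSMUSG00000025902, chr1:4561151-4567784, minus strand), the SOXF factor most tied to arteries, had 7253, 9219, 10024, 10104 and 12982 normalized counts with OSM and 6509 to 12468 with PBS (median 7954). High and low mice occurred in both groups, and PBS mouse 8 was next to the highest of all. On the log2 scale OSM minus PBS was 0.14 (SE 0.17, 95% interval -0.23 to 0.52, adjusted p = 1). Its residual spread, the SD of log2 CPM after litter and treatment were fitted, was 0.32, which is at the 94.8th percentile of the 500 genes nearest in level.

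Sox18 (ENSMUSG00000046470, chr2:181311629-181313438, minus strand) had 20353, 23689, 24103, 26084 and 26283 normalized counts with OSM and 20596 to 27148 with PBS (median 22369). A PBS-treated mouse was the highest and an OSM-treated mouse the lowest. OSM minus PBS was 0.07 on the log2 scale (SE 0.09, 95% interval -0.14 to 0.28, adjusted p = 1). All 3 SOXF genes were higher with OSM in litter 1 (log2 differences 0.23 to 0.27) and in litter 3 (0.17 to 0.55) and lower in litter 2 (-0.23 to -0.19). Without litter 2, the 3 log2 differences were 0.36 (SE 0.10) for Sox7, 0.33 (SE 0.14) for Sox17 and 0.22 for Sox18, each with an unadjusted p under 0.05 and an adjusted p of 0.804 or above. In that fit 5.85% of all genes had such a p, and the litter left out was the one in which all 3 had the opposite sign.

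**Figure D2:**
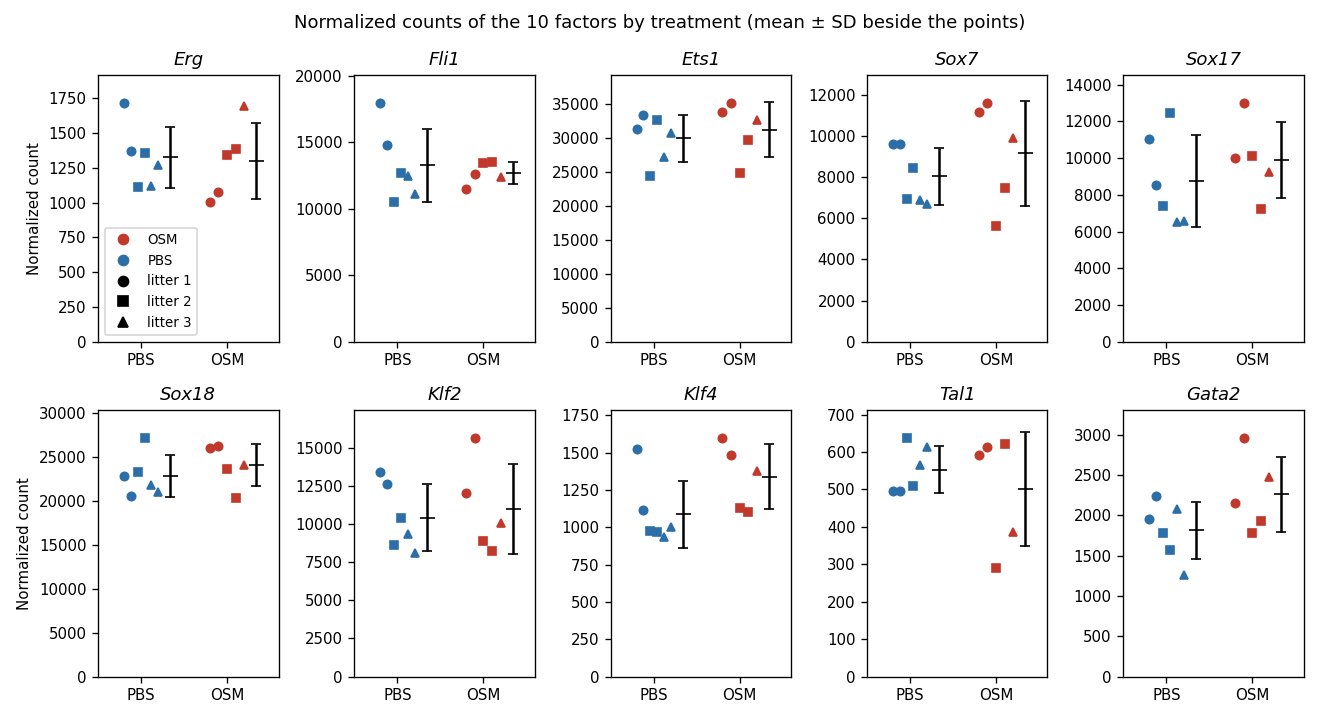
Normalized counts of each factor (axes from 0) in 6 PBS-treated mice (blue) and 5 OSM-treated mice (red), with litters as symbols and mean ± SD beside the points. In every panel the groups overlap, and for Klf4 the PBS-treated mice other than mouse 3 lie at or below 1115.

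Klf2 and Klf4 respond to flow through a MEK5, ERK5 and MEF2 pathway, so the bases just before their transcription starts are shown, taken from RefSeq (GRCm38.p6) for the 250 bases upstream of each start. Capitals mark a match to the MEF2 consensus, searched on both strands.
Klf2 chr8:72318812-72319061, plus strand: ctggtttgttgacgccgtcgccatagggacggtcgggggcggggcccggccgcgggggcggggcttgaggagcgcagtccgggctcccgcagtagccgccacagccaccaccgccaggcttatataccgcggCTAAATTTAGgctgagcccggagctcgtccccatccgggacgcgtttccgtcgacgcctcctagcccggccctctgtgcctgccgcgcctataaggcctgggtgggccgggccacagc
Klf4 chr4:55532476-55532725, minus strand: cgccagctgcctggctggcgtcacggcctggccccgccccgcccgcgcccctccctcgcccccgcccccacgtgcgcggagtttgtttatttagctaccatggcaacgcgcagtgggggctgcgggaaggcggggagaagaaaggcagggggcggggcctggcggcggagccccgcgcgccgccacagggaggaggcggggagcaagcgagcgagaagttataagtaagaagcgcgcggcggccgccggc
The Klf2 window held 1 match, 118 to 109 bases before the start, a motif found in 2.92% of 32851 such windows, and the Klf4 window held none. GC boxes (GGGCGG, both strands) numbered 2 in the Klf2 window and 4 in the Klf4 window, and 32.7% of windows held at least 1. The table had windows for 5 of the 10 members and none for Fli1, Ets1, Sox7, Sox17 and Sox18. Of the others, 1 of 3 Erg windows held the MEF2 consensus and no Tal1 or Gata2 window did.

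Klf2 (ENSMUSG00000055148, chr8:73072726-73075502, plus strand) had 8239, 8899, 10097, 12023 and 15624 normalized counts with OSM and 8075 to 13420 with PBS (median 9844). The high values in both groups belonged to litter 1. The log2 difference was 0.03 (SE 0.10, 95% interval -0.19 to 0.25, adjusted p = 1).

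Klf4 (ENSMUSG00000003032, chr4:55527139-55532528, minus strand), its relative that also restrains inflammatory genes, had 1103, 1131, 1379, 1487 and 1597 normalized counts with OSM and 935.68 to 1522 with PBS (median 989). All OSM-treated mice lay above 4 of the 6 PBS-treated mice, and the highest PBS value, in mouse 3, lay inside the OSM range. The log2 difference was 0.29 (SE 0.15, 95% interval -0.04 to 0.62, unadjusted p = 0.0809, adjusted p = 0.955). It was positive in each litter, at 0.23, 0.20 and 0.51, as log2 differences of the same sign in all litters were for 23.3% of all genes and for 2 of the 10 members. The residual spread of Klf4 was 0.15, at the 1.80th percentile of the 500 genes nearest in level. Without PBS mouse 3 the log2 difference was 0.37 (SE 0.16), with an unadjusted p under 0.05, as for 4.61% of all genes in that fit, and an adjusted p of 1.

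Tal1 (ENSMUSG00000028717, chr4:114913623-114928952, plus strand), a basic helix-loop-helix factor required for the blood and endothelial lineages, had 291, 387, 592, 613 and 621 normalized counts with OSM and 497 to 637 with PBS (median 538). The lowest pair of mice were OSM-treated, from litters 2 and 3, and the other OSM values lay among those of PBS. For Tal1 the log2 difference was -0.17 (SE 0.28, 95% interval -0.79 to 0.46, adjusted p = 1), the widest interval of the 10.

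Gata2 (ENSMUSG00000015053, chr6:88170559-88184018, plus strand), a zinc finger factor of endothelial and haematopoietic progenitors, had 1784, 1935, 2150, 2470 and 2957 normalized counts with OSM and 1265 to 2245 with PBS (median 1865). The top pair of mice were OSM-treated and the bottom pair PBS-treated, with overlap between. For Gata2 the log2 difference was 0.31 (SE 0.16, 95% interval -0.05 to 0.66, unadjusted p = 0.0860, adjusted p = 0.955). It was positive in each litter, at 0.28, 0.15 and 0.56. Erythroid markers were also higher in the OSM-treated mice of each litter, and their part in this value was not tested. Tal1 and Gata2 had estimates of opposite sign, and neither interval excluded 0.

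**Figure D3:**
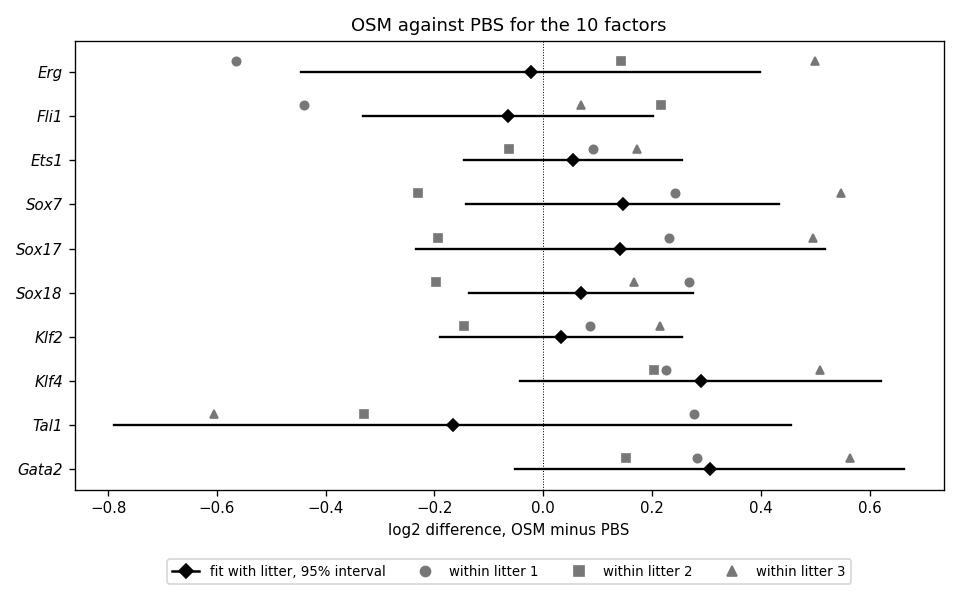
Log2 difference (OSM minus PBS) of each factor from the model with litter, with its 95% interval (black), and the difference within each litter (grey symbols). Every interval spans 0, and Klf4 and Gata2 have all 3 litters on the positive side. Litter 3 had 1 OSM-treated mouse.

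Klf2 stood highest in litter 1, whatever the treatment. It ranged from 12023 to 15624 normalized counts in the 4 mice of litter 1, from 8239 to 10368 in litter 2 and from 8075 to 10097 in litter 3, so every mouse of litter 1 exceeded every other mouse. Of the 10 members this held for Klf2 alone, and it held for 1.52% of all genes tested. Sox7 averaged 10496 ± 1029 normalized counts in litter 1 (SD, n = 4), 7119 ± 1190 in litter 2 and 7837 ± 1809 in litter 3.

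The test of litter, in which 0.0176% of all genes were called and 10.3% had an unadjusted p under 0.05, called none of the 10. In edgeR, Klf2 had an adjusted p = 0.109 and Sox7 an adjusted p = 0.294, and both had an unadjusted p under 0.05. Without the filter on low counts both were called, with adjusted p = 0.00506 for Klf2 and 0.0377 for Sox7, in a fit that called 625 of 28940 genes (2.16%). Klf4, at 1430 ± 215 normalized counts in litter 1, 1043 ± 85.5 in litter 2 and 1105 ± 239 in litter 3, had an adjusted p = 0.504. Among the KLF factors outside the set, Klf6 was called, with an adjusted p = 0.0216. No gene was called for litter when any of OSM mice 1, 2, 5 or 9 or PBS mice 3, 4 or 11 was left out.

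Immediate early genes, which tissue digestion and sorting can induce, followed the same division. Their sum was 2833 to 3451 CPM in litter 1, 1768 to 2341 CPM in litter 2 and 2003 to 2080 CPM in litter 3, whereas it was 1779 to 3408 CPM with OSM and 1768 to 3451 CPM with PBS. Of the 17 gene lists summed, 7 had all mice of litter 1 above all others, among them the other ETS and KLF factors, so this division was not particular to Klf2. Some lists share genes, and some margins were narrow. The endothelial genes with ETS sites had 25143 CPM or more in litter 1 and up to 25082 CPM in the other mice. The sum of the members did not separate, nor did that of the endothelial markers (18798 CPM or more against up to 19737 CPM). The 6 listed genes regulated by KLF2 and KLF4 were another of the 7 lists, at 2326 to 2675 CPM in litter 1 against 1540 to 2137 CPM in litter 2 and 1672 to 1792 CPM in litter 3. The list was not split into induced and repressed genes, so its sum does not measure KLF activity. The part of the immediate early genes and of the mitochondrial share in the litter difference of Klf2 was not tested.

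**Figure D4:**
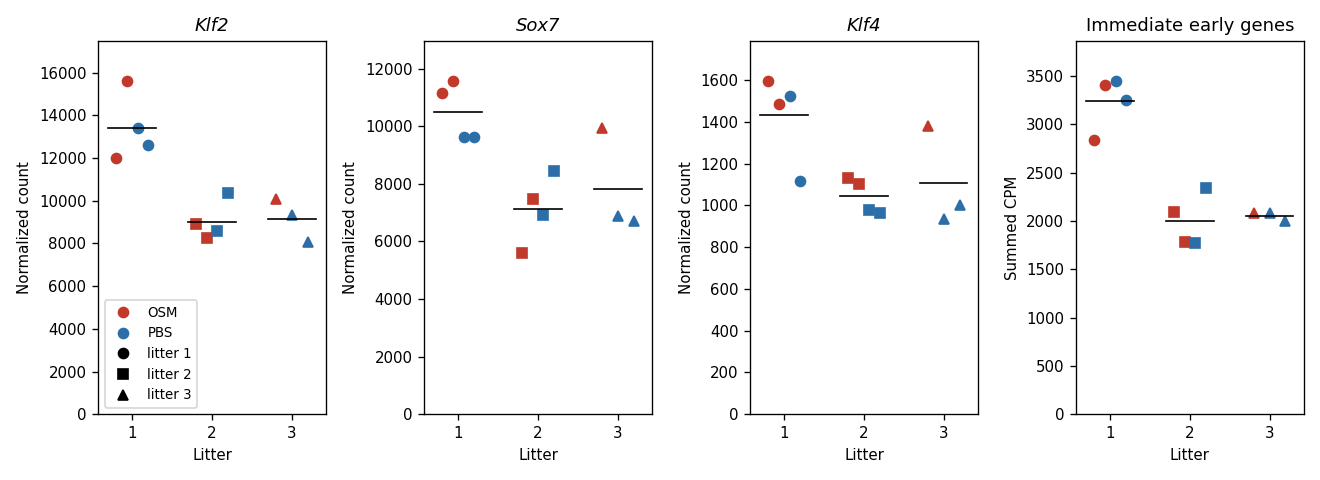
Normalized counts of Klf2, Sox7 and Klf4 and the summed CPM of 15 immediate early genes in each mouse by litter (axes from 0, bars at litter means, OSM red, PBS blue). For Klf2 and for the immediate early genes all 4 mice of litter 1 lie above all other mice.

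Whether the OSM difference itself depended on litter was tested with an interaction term, for which mouse 9 was the only OSM-treated mouse of litter 3. No member was called, as none of the 17050 genes was (0%), while 6.42% of all genes had an unadjusted p under 0.05. Fli1 (adjusted p = 0.690) and Sox7 (adjusted p = 0.740) had unadjusted p under 0.05 and opposite order: Fli1 was lower with OSM in litter 1 and higher in litter 2, and Sox7 was higher with OSM in litter 1 and lower in litter 2. Sox18 and Erg each had an adjusted p = 0.773.

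Members were correlated in pairs across the 11 mice. Of the 45 pairs, 2 had an adjusted permutation p under 0.05 for Pearson's r of log2 CPM, and both involved Sox7. Ets1 and Sox7 had r = 0.86 (permutation p = 0.00028, adjusted p = 0.0126) and Spearman's rho = 0.86 (permutation p = 0.00126, adjusted p = 0.0567), and r was 0.84 without mice 5 and 7, the 2 farthest from the median of Ets1. Sox7 and Klf2 had r = 0.84 (permutation p = 0.00150, adjusted p = 0.0338) and rho = 0.78 (permutation p = 0.00600, adjusted p = 0.0914), and r was 0.84 without mice 2 and 5.

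With litter means removed, no pair passed. The correlation of Ets1 with Sox7 was then 0.76 (permutation p within litters = 0.0292, adjusted p = 0.329) and that of Sox7 with Klf2 0.55 (permutation p within litters = 0.119, adjusted p = 0.593). The highest values were between Sox17 and Klf2 (r = 0.83), Erg and Fli1 (r = 0.82) and Sox17 and Sox18 (r = 0.81), each with an adjusted permutation p of 0.143. Over all mice without that removal, the lowest r was -0.51, between Tal1 and Erg (permutation p = 0.107, adjusted p = 0.320). Fli1 and Ets1, which are neighbours in the genome, had r = 0.23.

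**Figure D5:**
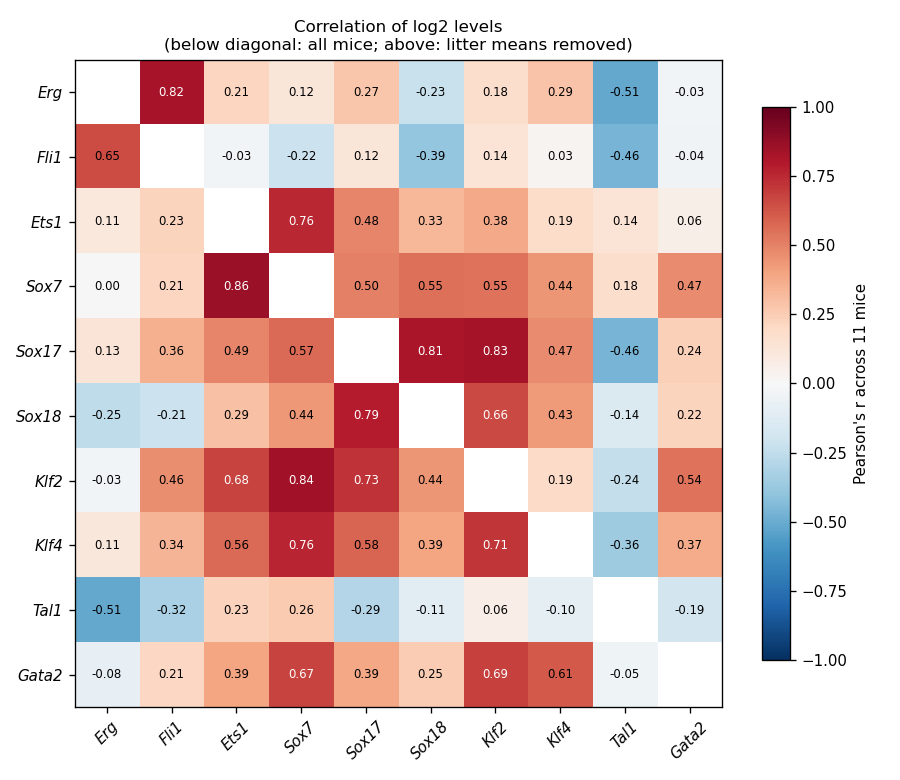
Pearson's r of log2 CPM between the members across 11 mice, with all mice below the diagonal and litter means removed above it. The highest values below the diagonal are those of Sox7 with Ets1 (0.86) and with Klf2 (0.84). Above it they are those of Sox17 with Klf2, Erg with Fli1, and Sox17 with Sox18 (0.81 to 0.83).

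Relatives and partners of these factors were tested in the same fit. Of 14 other ETS factors tested, none had an unadjusted p under 0.05, and the best expressed, Ets2 and Elk3, had log2 differences of 0.04 (SE 0.13) and -0.08 (SE 0.09). None of 9 other SOX factors had an unadjusted p under 0.05, and Sox4 had 0.14 (SE 0.11). Of 10 other KLF factors only Klf5 had one, at a mean of 15.7 normalized counts. It had 0 to 1.19 normalized counts with OSM and 0 to 77.6 with PBS. It thus passed the filter through PBS-treated mice alone, and its p is not read as a treatment difference. None of the 14 tested partners and relatives of TAL1 and GATA2 had one, with Lmo2 at 0.04 (SE 0.09) and Tcf4, an E protein, at 0.05 (SE 0.08). The same held for 18 other endothelial transcription factors, among which Epas1, the hypoxia-inducible factor 2α, had -0.15 (SE 0.10) and Meox1 had 0.20 (SE 0.11).

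Genes that the members regulate gave no call. Of 17 endothelial genes with known ETS sites, 11 SOXF-regulated genes, 6 genes regulated by KLF2 and KLF4 and 11 regulators upstream of Klf2 and Klf4, none had an unadjusted p under 0.05. Their median log2 differences were 0.02, -0.05, -0.03 and -0.08, beside 0.06 for the members and -0.01 for all genes. The lists were not split into induced and repressed genes, so these medians do not measure the activity of the factors. Single log2 differences were 0.16 (SE 0.10) for Cldn5, the tight junction claudin of the blood-retina barrier, 0.03 (SE 0.10) for Vwf, -0.05 (SE 0.11) for Egfl7, 0.09 (SE 0.08) for S1pr1, the sphingosine-1-phosphate receptor, and -0.08 (SE 0.18) for Tek, the angiopoietin receptor. Upstream of the KLF factors, Heg1, a receptor of the CCM pathway, had -0.16 (SE 0.14) and Piezo1, a mechanically gated channel, -0.08 (SE 0.18). The immediate early genes Dusp1 and Ier2 had -0.10 (SE 0.14) and -0.06 (SE 0.12).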

How the data were processed

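RNA of sorted cells was amplified from poly(A) tails with a SMARTer Ultra Low Input kit, which does not mark strand, and sequenced. The authors aligned reads to GRCm39 with STAR and counted them with featureCounts on GENCODE genes, and deposited whole-number read counts per gene without normalization, 1 file per mouse. The mouse number of each file was taken from the series record, because the headers of mice 10 and 11 carry other numbers. Symbols came from GENCODE vM39, which held 54749 of 55359 identifiers. Groups and litters were taken from the labels and the design text.

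Counts of 17050 genes that passed filterByExpr (count minimum 10) were fitted in edgeR 4.0.16 (R 4.3.3) with TMM normalization, terms for litter and treatment, and robust quasi-likelihood tests with Benjamini-Hochberg adjustment. A call means an adjusted p under 0.05. Normalized counts are TMM-scaled to the mean library. RPKM used the union of exons. Differences within litters used a pseudocount of 0.5. DESeq2 1.42.0, other scalings, no filter, no litter term, thinning and the omission of each mouse and litter were alternatives. Correlations used log2 CPM and 100000 permutations (two-sided), shuffled within litters where litter means were removed. Genes named outside the members were, per list, those with an unadjusted p under 0.05 (at most 4) or else the 2 with the highest mean count. A listed marker is not reported here. Klf6, Etv2, Ptprc, P2ry12, Lyz2, Gata1 and Klf1 were named after their values were seen. The members and lists were chosen with earlier results of these data known. Reads carry no molecular identifiers, so errors are the spread between mice, not counting errors. The fit was run on simulated counts without litter differences and with larger changes than those of the members. That run therefore does not bear on differences as small as theirs.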

Additional observations from a re-analysis of the deposited data

Results flagged for a closer look

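Klf4 in PBS mouse 3, at 1522 normalized counts, stood apart from the other 5 PBS-treated mice, of which the nearest had 1115. It was the only such value among the 20 groups examined (10 genes in 2 treatments), and chance would give about 1 in 20. The mouse belonged to litter 1, in which the other Klf4 values were 1115 to 1597 normalized counts.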

How the results depend on the processing

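For OSM against PBS no member was called under any of 20 alternatives, and the lowest adjusted p of a member was 0.314 (Klf4, DESeq2). Over all genes, OSM against PBS gave 0 calls, 65 without the filter on low counts (26 higher, 39 lower) and 168 with DESeq2 (74 higher, 94 lower). Litter gave 3 calls, none a member, and 625 without the filter, with Klf2 and Sox7 among them, and 0 to 44 when 1 mouse was left out, the most without PBS mouse 8. The interaction gave 0 calls, 305 without the filter, and 0 to 1 with 1 mouse left out, and it could not be fitted without OSM mouse 9. The 2 correlated pairs became 0 with litter means removed and 0 to 3 with 1 mouse left out, with 0 without OSM mouse 2 or PBS mouse 4. Leaving out 1 mouse or 1 litter turned the sign of Erg (-0.21 to 0.29), Fli1 (-0.24 to 0.16), Sox18 (-0.0497 to 0.22) and Klf2 (-0.0336 to 0.13). It did not turn Ets1, Sox7, Sox17, Klf4, Tal1 or Gata2. It also turned Ets2 (-0.11 to 0.20), Sox13 (-0.27 to 0.22), Lmo2 (-0.0823 to 0.17), Tcf4 (-0.0139 to 0.16), Vwf (-0.0475 to 0.11), Egfl7 (-0.14 to 0.13), Tek (-0.25 to 0.0751), Piezo1 (-0.29 to 0.10), Ier2 (-0.17 to 0.10), Sag (-0.80 to 1.03), Gnat1 (-0.65 to 1.26), Apoe (-0.16 to 0.19) and Glul (-0.0399 to 0.0814). Without the litter term Sox13 was 0.10 and Apoe 0.0137. The cause was not tested. No paired analysis was possible because no mouse number occurs in both treatments, and litter served as the block. With 11 mice, differences inside the intervals given were not resolved.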
